A study of Mus musculus with 77 samples.

Results

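The Ifi200 (HIN-200) genes Ifi202b, Ifi203, Ifi204, Mndal and Aim2 were followed through mouse lungs and bone-marrow-derived macrophages (BMDM) that differed in strain, in Trem2 genotype and in oxygen exposure. The 5 genes were taken by their symbols from tables of 24940 genes, and they were chosen because Ifi202b differed between the DBA/2J (DBA) and C57BL/6J (B6) strains. All DBA against B6 levels below are therefore descriptions, given with no test. Trem2 knock out mice (KO) and DBA mice, both from Jackson strains, were compared with B6 mice. KO lungs after hyperoxia (n = 4) and in room air (n = 4), DBA lungs after hyperoxia (n = 4) and in room air (n = 4), and B6 lungs after hyperoxia (n = 3) and in room air (n = 4) were sequenced. A second, separately tabulated set held 3 B6 lungs after hyperoxia and 2 in room air. Pups were kept in 75% oxygen from their first day of life to postnatal day 14, or in room air, and whole lungs were perfused before RNA was taken. BMDM of each genotype were cultured for 24 h in hyperoxia or room air, with 2 libraries per genotype and exposure. The labels name no other allele or agent in any group.

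HIN-200 proteins are interferon-inducible and share a DNA-binding HIN domain, and most also carry a pyrin domain that recruits other proteins. AIM2 binds DNA in the cytosol and, through the adaptor ASC (encoded by Pycard), activates caspase-1, which matures interleukin-1β. The mouse family forms a cluster on chromosome 1 that differs between inbred strains, and it is well known for myeloid expression and for the lupus-associated gene Ifi202b. The Ifi202b product p202 has HIN domains but no pyrin domain, and it is known in mice as an inhibitor of AIM2 signalling.

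In mm10, as the tables list them, the members lie on chromosome 1. Aim2 is at chr1:173420604-173466036 on the plus strand, and the others are on the minus strand: Ifi204 at chr1:173747294-173766919, Mndal at chr1:173857220-173880187, Ifi203 at chr1:173920401-173942492 and Ifi202b at chr1:173962569-173982844. The promoter windows below (250 bases before to 50 bases after the start site, RefSeq, GRCm38.p6) are shown because Mndal and Ifi203, which fell with oxygen in B6 lungs, carry the same interferon-stimulated response element (ISRE) core and because the only p53 peak within 10 kb of a member touches the Mndal window. Capitals mark the ISRE core, written here as GAAA, any 2 bases and GAAA again, and searched on both strands.
Mndal, chr1:173880138-173880437, minus strand: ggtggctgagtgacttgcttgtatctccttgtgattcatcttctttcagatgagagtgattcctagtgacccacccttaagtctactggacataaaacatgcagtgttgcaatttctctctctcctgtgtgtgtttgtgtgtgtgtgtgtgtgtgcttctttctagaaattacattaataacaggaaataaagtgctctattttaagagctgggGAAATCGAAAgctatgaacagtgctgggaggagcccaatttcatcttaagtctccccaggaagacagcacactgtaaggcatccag
Ifi203, chr1:173942443-173942742, minus strand: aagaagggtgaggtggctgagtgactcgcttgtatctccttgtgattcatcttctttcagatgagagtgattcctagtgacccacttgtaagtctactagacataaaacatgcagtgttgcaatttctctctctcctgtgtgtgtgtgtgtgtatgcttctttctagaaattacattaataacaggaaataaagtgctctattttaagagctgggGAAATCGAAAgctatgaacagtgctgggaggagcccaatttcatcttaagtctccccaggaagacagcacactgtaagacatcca
Ifi202b, chr1:173982795-173983094, minus strand: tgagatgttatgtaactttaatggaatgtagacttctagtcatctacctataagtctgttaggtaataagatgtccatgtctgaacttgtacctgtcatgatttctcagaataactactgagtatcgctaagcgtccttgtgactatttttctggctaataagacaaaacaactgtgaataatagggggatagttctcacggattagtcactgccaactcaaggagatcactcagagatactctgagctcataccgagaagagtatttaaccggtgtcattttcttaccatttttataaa

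The ISRE core began 36 bases upstream of the listed Mndal start and 35 bases upstream of the listed Ifi203 start, and the longest run of identical bases shared by the Mndal and Ifi203 windows was 139 bases. The Ifi202b and Aim2 windows held no ISRE core. RefSeq gave 6 windows for 4 of the 5 members, since Mndal and Ifi203 have a pair of start sites each, and 3 of these 6 windows held the core. Of 32851 promoter windows of all genes 3.44% held it, as did 7 of 8 windows of other HIN-200 genes. Another interferon-response motif, the gamma-activated site (TTC, any 3 bases, GAA), was in 1 of the 6 windows, that of Ifi202b. Of all windows 8.3% held that site, and 0 of 8 windows of other HIN-200 genes did. A match describes the reference B6 sequence and says nothing of binding. Ifi204 is named only.

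Depth, estimated from TPM and transcript length, was 12.5 to 47.0 M reads per library in the main lung and BMDM tables and 7.08 to 8.04 M reads in the second lung set. Trem2, the targeted gene, was at 1.96 to 2.67 TPM in KO lungs and at 5.97 to 9.85 TPM in B6 lungs after hyperoxia, and at 1.05 to 2.75 TPM in KO lungs and 2.14 to 3.73 TPM in B6 lungs in room air. In BMDM it was at 236 to 252 TPM in KO and at 908 to 962 TPM in B6. The ranges of KO and B6 did not overlap in hyperoxic lungs or in BMDM, but they overlapped in room-air lungs, and Trem2 reads were found in all KO libraries. Macrophage markers were detected in every library, with summed levels of 16364 to 25233 TPM in BMDM and 720 to 6521 TPM in lungs. The column headers carry date codes, which DBA and B6 lungs do not share, KO and B6 lungs after hyperoxia do not share, and DBA or KO BMDM do not share with B6 BMDM. Genotype and date code cannot be told apart in those contrasts. The headers mark all KO and DBA lungs as male, while the B6 lungs of the main tables are from both sexes. All KO and DBA BMDM are marked MF, while 1 of the 2 B6 BMDM libraries of each exposure is marked MF and the other F. The labels do not say that replicates came from separate animals or cultures, so p-values measure the spread between libraries.

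Ifi202b was a DBA gene in these data. In DBA lungs after hyperoxia it was at 9.33, 6.00, 5.98 and 7.14 TPM, against 0 TPM in each of the 3 B6 lungs after hyperoxia. In room air it was at 4.73, 3.76, 4.75 and 3.94 TPM in DBA lungs, against 0, 0, 0 and 0.350 TPM in B6 lungs. The lowest DBA lung was thus above the highest B6 lung under either exposure, and the hyperoxic DBA mean was at least 67.6-fold higher than the level of 3 reads in a B6 library (0.105 TPM at most), the floor used for a count of 0. All 5 libraries of the second B6 lung set were also at 0, where 3 reads would be 0.254 to 0.288 TPM.

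The gap was wider in cultured macrophages. Ifi202b was at 213 and 244 TPM in hyperoxic DBA BMDM, against 0 TPM in both hyperoxic B6 BMDM libraries, which makes the DBA mean at least 2090-fold higher than 3 reads per B6 library. In room air it was at 311 and 455 TPM in DBA BMDM, against 0.0490 and 0 TPM in B6 BMDM, where the non-zero value is 1 read. Ifi202b made up 73.2 to 74.4% of the summed TPM of the 5 members in DBA BMDM and at most 0.0280% in B6 BMDM. In DBA lungs it made up 32.9 to 53.3% of that sum.

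KO mice, like B6, had almost no Ifi202b. KO lungs were at 0.353, 0.288, 0 and 0 TPM after hyperoxia and at 0.0550, 0.223, 0 and 0.177 TPM in room air. KO BMDM were at 0.164 and 0.0420 TPM in hyperoxia and at 0.103 and 0.0630 TPM in room air. The non-zero values stand for 2 to 11 reads each: 5 of 8 KO lung libraries and 4 of 4 KO BMDM libraries held any Ifi202b read, against 1 of 7 B6 lung libraries and 1 of 4 B6 BMDM libraries. The source of these few reads was not tested. DBA libraries held 68 to 379 reads in lung and 5721 to 12772 in BMDM.

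Mndal, a pyrin and HIN domain protein related to the human myeloid nuclear differentiation antigen, showed the opposite strain pattern. It was at 0.0700, 0.452, 0.0910 and 0.0660 TPM in DBA lungs after hyperoxia, against 10.0, 8.63 and 11.5 TPM in B6 lungs after hyperoxia. In room air it was at 0.0370, 0.0290, 0.497 and 0.601 TPM in DBA lungs, against 23.0, 30.6, 42.5 and 32.2 TPM in B6 lungs. In BMDM it was at 0.801 and 1.04 TPM in DBA and at 18.4 and 13.7 TPM in B6 under hyperoxia, and at 1.70 and 2.81 TPM in DBA and at 52.9 and 31.7 TPM in B6 in room air. No DBA library reached the lowest B6 library of its tissue and exposure. The differences of the log2(TPM + 1) means were -3.24 and -4.68 in lung and -3.14 and -3.71 in BMDM (hyperoxia and room air in turn, DBA minus B6).

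The other members differed less, and not the same way in both tissues. Ifi203 was at 1.80 ± 0.312 TPM in DBA lungs and 3.21 ± 0.133 TPM in B6 lungs after hyperoxia, and at 3.87 ± 0.893 TPM in DBA lungs and 17.9 ± 4.86 TPM in B6 lungs in room air (SD, n = 4, 3, 4 and 4). In BMDM Ifi203 was instead higher in DBA, at 17.3 ± 0.581 TPM against 7.90 ± 1.43 TPM in B6 under hyperoxia and at 36.5 ± 3.86 TPM against 24.4 ± 6.85 TPM in B6 in room air (SD, n = 2 each). Ifi204, a pyrin and HIN domain DNA sensor of the mouse that signals through STING, was at 0.757 ± 0.206 TPM in DBA lungs and 2.95 ± 1.37 TPM in B6 lungs in room air (SD, n = 4 each). In hyperoxic lungs its ranges overlapped, at 0.451 to 1.23 TPM in DBA and 1.15 to 2.87 TPM in B6. In hyperoxic BMDM Ifi204 was higher in DBA, at 44.3 and 47.3 TPM against 30.3 and 28.3 TPM in B6, and in room air the ranges overlapped. Sums of 10 macrophage markers were lower in DBA in room-air lungs, at 720 to 1139 TPM against 2664 to 5218 TPM in B6. After hyperoxia these sums overlapped, at 890 to 2209 TPM in DBA and 1861 to 2116 TPM in B6 lungs. Their part in the strain values was not tested. Aim2 overlapped between DBA and B6 in all 4 settings, with differences of log2 means between -0.25 and 0.15.

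The number of members with non-overlapping DBA and B6 ranges was 4 of 5 in room-air lungs, where 49.2% of all 15623 genes compared did not overlap, and 3 of 5 in hyperoxic lungs (49% of all). It was 3 of 5 in room-air BMDM (73.4% of 12320 genes) and 4 of 5 in hyperoxic BMDM (80.4%). Since the members were chosen on this contrast and strain shares its date codes with no B6 library, nothing is read from these counts. Reads of DBA mice were mapped to mm10, a B6 genome, and near-identical family copies can share reads. How far either moved the DBA levels was not tested.

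**Figure D1:**
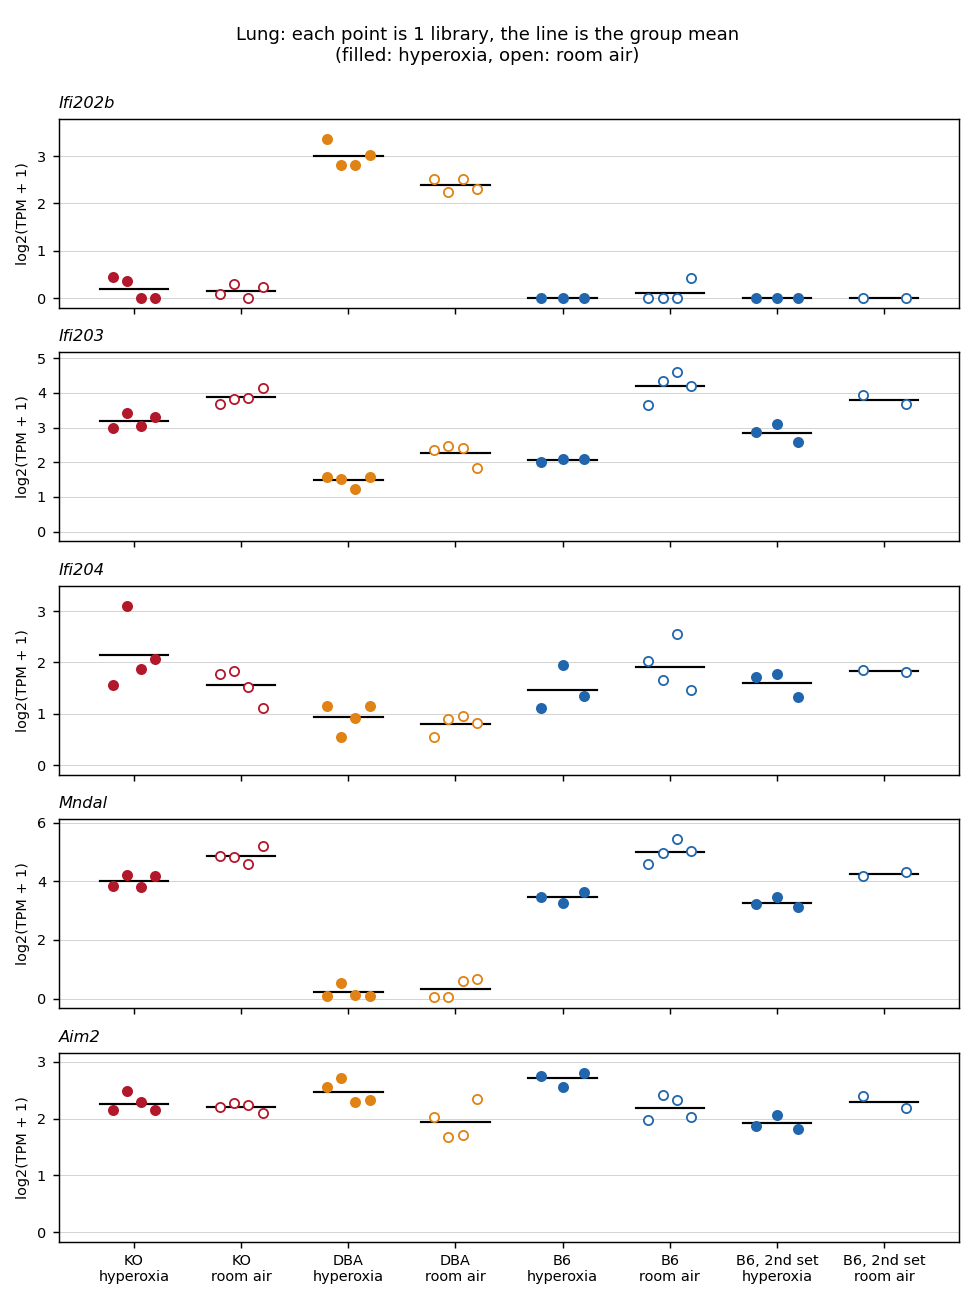
log2(TPM + 1) of each member (rows of panels) in every lung library, by group. Points are libraries, lines are group means, filled points are hyperoxia and open points room air. Ifi202b lies between 2.25 and 3.37 in DBA lungs and at or below 0.44 in all others, and Mndal lies near 0 only in DBA lungs.

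**Figure D2:**
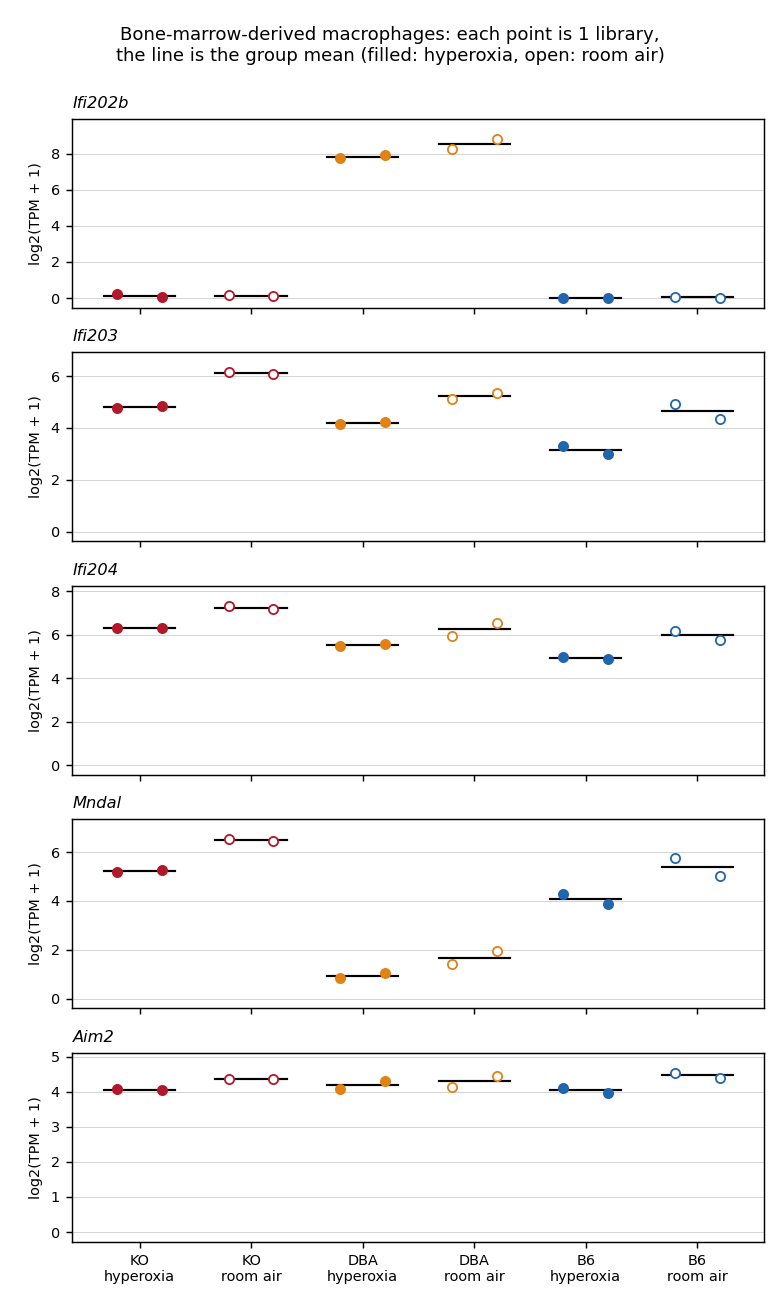
log2(TPM + 1) of each member in the 12 BMDM libraries, by genotype and exposure, drawn as for the lungs. Ifi202b stands at 7.74 to 8.83 in DBA and at or below 0.22 in KO and B6, and Ifi203, Ifi204 and Mndal are highest in room-air KO BMDM.

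Other genes of the cluster were described the same way. Of 34 genes with a start within 500 kb of a member's start, 21 are olfactory receptor genes and 25 stayed below 1 TPM in all B6 and DBA libraries. In 7 the DBA and B6 group means differed by at least 1 on the log2 scale in some tissue and exposure, which is 20.6%, against 16.5% of all 24940 genes by the same rule. Among genes that reached 1 TPM in some B6 or DBA library it was 7 of 9 neighbours and 24.4% of all 16822 such genes. Ifi208 averaged 0.624 TPM in DBA lungs and 12.9 TPM in B6 lungs in room air, and Ifi209 averaged 1.05 TPM in DBA lungs and 8.28 TPM in B6 lungs. Ifi213 averaged 0.0100 TPM in DBA lungs and 1.73 TPM in B6 lungs in room air, and Ifi205 averaged 0.797 TPM in DBA lungs and 2.66 TPM in B6 lungs after hyperoxia. Ifi207 was lower in DBA lungs (1.37 TPM, against 3.81 TPM in B6 lungs after hyperoxia) but higher in DBA BMDM (148 TPM, against 66.2 TPM in B6 BMDM under hyperoxia). Ifi211, the gene between Mndal and Ifi203 in this order, averaged 38.8 TPM in DBA BMDM and 15.2 TPM in B6 BMDM in room air. No other HIN-200 gene came near the size of the Ifi202b or Mndal difference in BMDM. This did not hold in room-air lungs, where the Ifi208 difference (-3.07, log2) was larger in size than that of Ifi202b and Ifi209 was at -2.16.

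**Figure D3:**
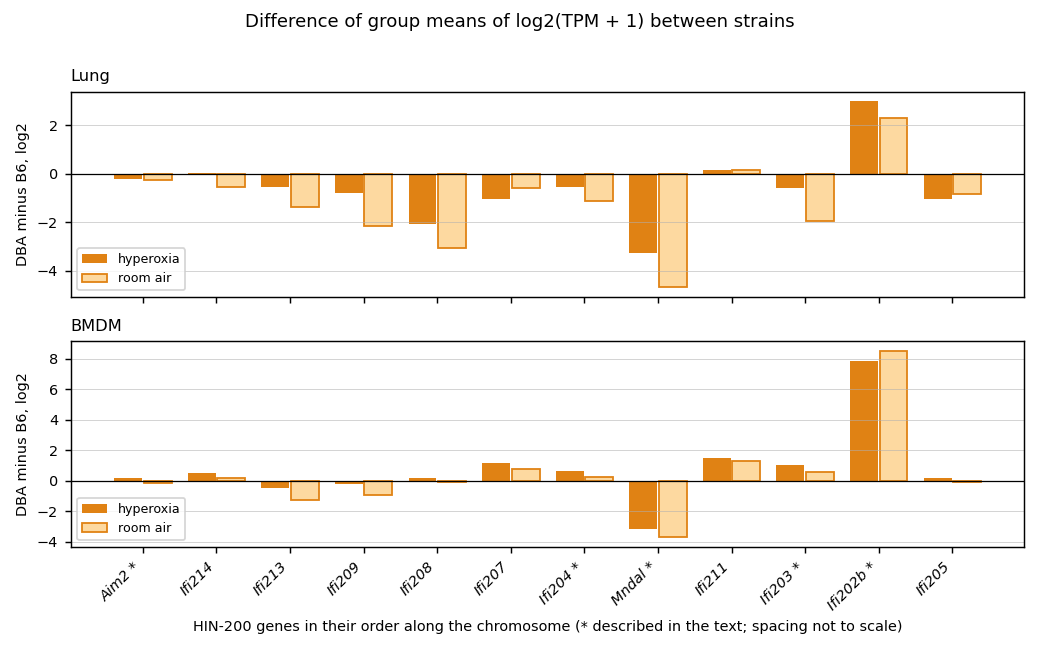
Difference of group means of log2(TPM + 1), DBA minus B6, for the 12 HIN-200 genes in the tables, in chromosome order (spacing not to scale), in lung (top) and BMDM (bottom). Ifi202b is the tall positive bar (3.0 and 2.29 in lung, 7.84 and 8.52 in BMDM, hyperoxia and room air) and Mndal the deepest negative one.

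The genes whose pattern was most like each member were sought over 27 libraries (B6 and DBA lungs and all BMDM), as the root mean square difference of log2(TPM + 1) values standardized within each tissue, among 11503 genes. Nearest to Ifi202b were Atp5g2 (0.155), H2-Ea-ps (0.168) and Eyelinc18 (0.175), all on other chromosomes. H2-Ea-ps averaged 131 TPM in DBA lungs and 0 TPM in B6 lungs after hyperoxia, and Atp5g2 averaged 41.7 TPM in DBA lungs and 1.19 TPM in B6 lungs. Nearest to Mndal were Gm14403 (0.172), Trim30d (0.186) and Trim5 (0.214), with averages of 0.0170, 0.0400 and 0.0880 TPM in DBA lungs and 5.33, 2.86 and 2.63 TPM in B6 lungs after hyperoxia. Ifi203 was nearest to Fam46a (0.334), Ifih1 (0.339) and Ddx58 (0.352), and Ifi204 to Ifih1 (0.444), Pign (0.475) and Lcp2 (0.483); Ifih1 and Ddx58 encode the RNA sensors MDA5 and RIG-I. Aim2 was nearest to Rpa1 (0.609), Mad2l1 (0.611) and Tipin (0.621), which act in DNA replication and the cell cycle. The points share libraries and strain, so the likeness is a description.

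The members were not chosen on their oxygen response, though earlier results of these data were known when they were chosen. That response was tested with limma on log2(TPM + 1), with Benjamini-Hochberg adjustment over all genes tested and a threshold of 0.05. Ifi202b could be followed in DBA alone. In DBA lungs it rose with hyperoxia by 0.60 ± 0.15 (log2, SE; adjusted p = 0.00824), and the 4 hyperoxic libraries (7.11 ± 1.57 TPM, SD) all lay above the 4 room-air libraries (4.29 ± 0.518 TPM, SD). In DBA BMDM it fell instead, by 0.72 on the log2 scale (SE 0.158, adjusted p = 0.0120), with both hyperoxic libraries (213 and 244 TPM) below both room-air libraries (311 and 455 TPM). Within either date code of the DBA lungs the rise was 0.70 and 0.50 (log2) with adjusted p = 0.137 and 0.0868, with 2 libraries per group. With a pseudocount of 0.1 the lung rise was 0.70 (adjusted p = 0.221) and the BMDM fall was -0.72 (adjusted p = 0.162). Where 1 of 2 BMDM libraries of a group is left out, here and below, the remaining one is assumed to vary like the other groups of the fit. Without the second room-air BMDM library the BMDM difference was -0.45 (adjusted p = 0.0556), and without the first hyperoxic one it was -0.63 (adjusted p = 0.0977).

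Ifi203 fell with oxygen in every genotype and tissue. In lungs after hyperoxia it was at 7.02, 9.80, 7.24 and 8.86 TPM in KO, against 11.9, 13.1, 13.4 and 16.7 TPM in room-air KO lungs. In B6 it was at 3.06, 3.30 and 3.26 TPM after hyperoxia, against 11.6, 19.4, 23.2 and 17.5 TPM in room air. In DBA it was at 1.98, 1.87, 1.33 and 1.99 TPM after hyperoxia, against 4.12, 4.52, 4.30 and 2.56 TPM in room air. Hyperoxic and room-air libraries did not overlap in any of the 3 genotypes. The log2 differences were -0.68 in KO (adjusted p = 0.00998), -0.79 in DBA (adjusted p = 0.00492) and -2.13 in B6 (adjusted p = 5.21e-07). Within a single date code the differences were -0.80 in KO (adjusted p = 0.0142), -0.86 and -0.72 in DBA (adjusted p = 0.0685 and 0.102) and -1.93 in B6 (adjusted p = 0.00249).

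In BMDM Ifi203 was at 27.2 ± 1.08 TPM in hyperoxia and 68.6 ± 2.04 TPM in room air in KO, at 17.3 ± 0.581 TPM and 36.5 ± 3.86 TPM in DBA, and at 7.90 ± 1.43 TPM and 24.4 ± 6.85 TPM in B6 (hyperoxia, then room air; SD, n = 2 each). These are log2 differences of -1.30, -1.03 and -1.50, with adjusted p = 0.000636, 0.00278 and 0.000318. In the second B6 lung set Ifi203 was at 6.27, 7.62 and 4.99 TPM after hyperoxia, against 14.4 and 11.8 TPM in room air (log2 difference -0.96, adjusted p = 0.0255). Those 5 libraries hold the lowest depth. Without either room-air library, which leaves 1 that is assumed to vary like the hyperoxic ones, the differences were -0.83 and -1.10 (adjusted p = 0.218 and 0.168). Without the first hyperoxic library of that set it was -0.97 (adjusted p = 0.0682), and with no filter on low values the adjusted p was 0.0756.

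Mndal fell with oxygen wherever it was well expressed. In lungs after hyperoxia it was at 13.4, 17.7, 13.1 and 17.2 TPM in KO, against 27.9, 27.3, 22.9 and 36.0 TPM in room-air KO lungs (log2 difference -0.85, adjusted p = 0.00285). In B6 lungs, with the values given above, the difference was -1.56 (adjusted p = 8.08e-06). Within a single date code it was -0.88 in KO (adjusted p = 0.0218) and -1.33 in B6 (adjusted p = 0.00328). The second B6 set had 8.33, 9.95 and 7.72 TPM after hyperoxia, against 17.4 and 19.1 TPM in room air (log2 difference -1.0, adjusted p = 0.00892). No hyperoxic library of these groups reached the lowest room-air one. Without either room-air library of the second set, the Mndal difference was -1.06 (adjusted p = 0.129) or -0.93 (adjusted p = 0.15). In BMDM Mndal was at 36.4 ± 0.871 TPM in hyperoxia and 89.3 ± 3.13 TPM in room air in KO, and at 16.0 ± 3.29 TPM in hyperoxia and 42.3 ± 14.9 TPM in room air in B6 (SD, n = 2 each), log2 differences of -1.27 (adjusted p = 0.00399) and -1.31 (adjusted p = 0.00302). In DBA, where it was near 0, the difference was -0.13 in lung (adjusted p = 0.657) and -0.74 in BMDM (adjusted p = 0.0518). That call was made without the first room-air library (-0.99, adjusted p = 0.0423) and with a pseudocount of 0.1 (-1.17, adjusted p = 0.0173).

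Ifi204 fell with oxygen in BMDM of each genotype: to 79.4 and 78.9 TPM in hyperoxic KO BMDM, against 161 and 143 TPM in room air (log2 difference -0.93, adjusted p = 0.00487); to 44.3 and 47.3 TPM in hyperoxic DBA BMDM, against 61.3 and 93.3 TPM (-0.71, adjusted p = 0.0215); and to 30.3 and 28.3 TPM in hyperoxic B6 BMDM, against 71.6 and 54.0 TPM (-1.06, adjusted p = 0.00233). The DBA call was lost without the second room-air library (-0.41, adjusted p = 0.107) and without either hyperoxic library (-0.66 and -0.76, adjusted p = 0.117 and 0.0856), and it was at adjusted p = 0.0506 with only the groups compared in the fit. In lungs it did not pass the test in any genotype, with log2 differences of 0.59 in KO (95% interval -0.07 to 1.25), 0.13 in DBA (-0.37 to 0.64) and -0.45 in B6 (-1.17 to 0.26). In the second B6 set it was -0.23 (-0.72 to 0.27). The B6 lung interval holds the B6 BMDM value, and a difference between tissues was not tested. One hyperoxic KO lung, at 7.59 TPM, lay above the other 3, at 1.93 to 3.16 TPM.

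Aim2, the inflammasome sensor, moved the other way in lung. It was at 5.73, 4.90 and 6.01 TPM in hyperoxic B6 lungs, against 2.96, 4.31, 4.04 and 3.10 TPM in room-air B6 lungs, without overlap (log2 difference 0.52, adjusted p = 0.00541). In DBA lungs it was at 4.87, 5.57, 3.89 and 4.04 TPM after hyperoxia, against 3.06, 2.21, 2.27 and 4.10 TPM in room air, with overlap (0.53, adjusted p = 0.0220). In KO lungs it was at 3.83 ± 0.536 TPM after hyperoxia and 3.60 ± 0.243 TPM in room air (SD, n = 4 each), a difference of 0.06 with a 95% interval of -0.20 to 0.33. In the second B6 set it was lower after hyperoxia, at 2.63, 3.19 and 2.51 TPM against 4.25 and 3.53 TPM in room air (-0.37, 95% interval -0.80 to 0.06, adjusted p = 0.301), so the rise of the first B6 set was not seen there. The DBA rise missed the threshold without the second or the third room-air DBA lung and without the first or the second hyperoxic one, with differences of 0.45, 0.46, 0.50 and 0.45 and adjusted p from 0.0524 to 0.0682. With only the groups compared in the fit it was at adjusted p = 0.05003. Within a single date code the Aim2 difference was 0.78 and 0.28 in DBA lungs (adjusted p = 0.0890 and 0.443) and 0.51 in B6 lungs (adjusted p = 0.0768). It was 0.49 in male B6 lungs (adjusted p = 0.136), and 0.57 in female ones, where the hyperoxic group is a single library and no p is given.

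In BMDM Aim2 was at 16.4 and 14.6 TPM in hyperoxia, against 22.3 and 20.0 TPM in room air in B6, and fell (-0.42, adjusted p = 0.0232). In KO BMDM it was at 15.9 and 15.4 TPM in hyperoxia, against 19.7 and 19.4 TPM in room air (-0.30, adjusted p = 0.0924, and 0.00649 with only the groups compared in the fit), and in DBA BMDM at 16.0 and 18.7 TPM against 16.5 and 21.0 TPM (-0.10, adjusted p = 0.600). The B6 fall was -0.35 without the first room-air library (adjusted p = 0.135) and -0.35 without the second hyperoxic one (adjusted p = 0.124). It was -0.27 under quantile normalization (adjusted p = 0.0838), and with only the groups compared in the fit it was at adjusted p = 0.0693.

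Counted over the members, oxygen raised 0 and lowered 2 of 4 tested in KO lungs (19.7% of all genes were called), raised 2 and lowered 1 of 5 in DBA lungs (31% called), and raised 1 and lowered 2 of 4 in B6 lungs (42.7% called). In the second B6 set 0 rose and 2 of 4 fell (4.94% called, 1.81% lower). In BMDM none rose, and 3 of 5 fell in KO (23.3% called), 3 of 5 in DBA (18.8% called) and 4 of 5 in B6 (28.5% called). Of all genes 6.88% rose in KO BMDM and 5.68% in B6 BMDM. The median log2 difference of the tested members was -0.31, 0.13 and -1.01 in KO, DBA and B6 lungs and -0.93, -0.72 and -1.06 in KO, DBA and B6 BMDM, where the median of all genes lay between -0.13 and 0.05. In KO and B6 lungs and the second set, Ifi202b stayed under the filter of 1 TPM and was not tested. In BMDM Ifi202b passed the filter through DBA alone and is among the 5 of KO and B6 too, and in the table of DBA and B6 lungs Ifi202b passed through DBA alone and Mndal through B6 alone.

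**Figure D4:**
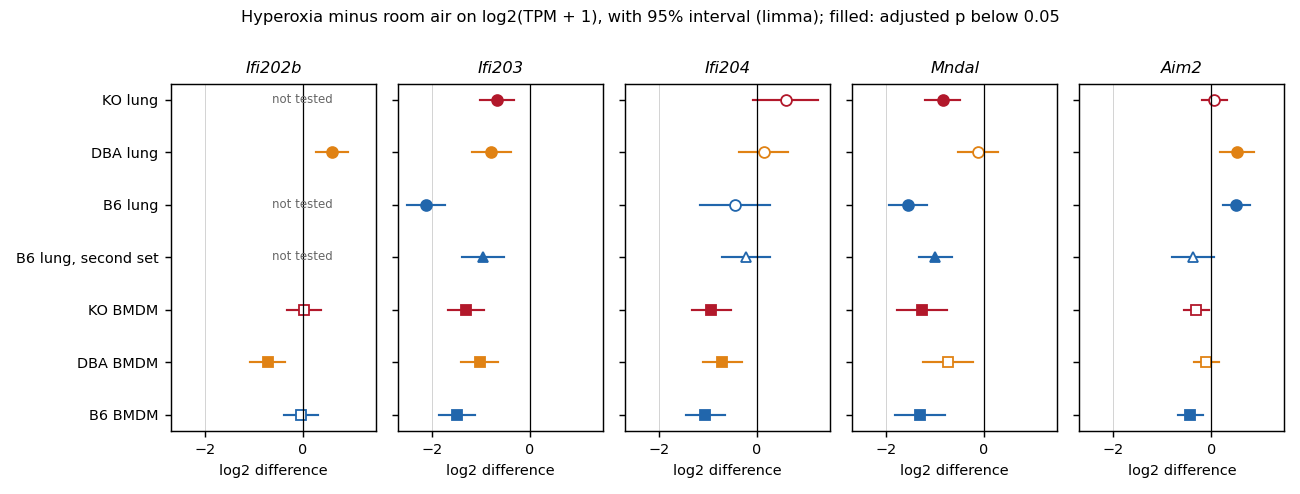
Hyperoxia minus room air on log2(TPM + 1) for each member, with 95% intervals, in KO, DBA and B6 lungs, the second B6 lung set, and BMDM. Filled symbols passed an adjusted p of 0.05. Ifi203 lies left of 0 in all 7 rows (-0.68 to -2.13), and Ifi202b lies on opposite sides of 0 in DBA lung (0.60) and DBA BMDM (-0.72).

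Macrophage marker sums were lower after hyperoxia in KO and B6 lungs and in the second set, while the DBA ranges overlapped. The summed TPM of 10 macrophage markers was 2829 to 3584 in hyperoxic KO lungs and 5061 to 6521 in room-air KO lungs, 890 to 2209 in hyperoxic DBA lungs and 720 to 1139 in room-air DBA lungs, and 1861 to 2116 in hyperoxic B6 lungs and 2664 to 5218 in room-air B6 lungs. The second set had 2979 to 3693 after hyperoxia and 5313 to 5883 in room air. No marker of the list was at 0 in any group. Of the 10 markers, 1 rose and 2 fell in KO lungs, 3 rose and 1 fell in DBA lungs, and 2 rose and 5 fell in B6 lungs. The sums did not stand for each marker. In KO lungs Lyz2 and Mertk fell (log2 -0.87 and -0.55) while Cd14 rose (0.78). In the second set Lyz2 fell (-0.85) while Cd14 and Cd68 rose (1.45 and 0.79). Of 8 lymphocyte markers 0 rose and 5, 1 and 3 fell in KO, DBA and B6 lungs, and 4 of 6 tested neutrophil markers rose in DBA lungs. Of 5 endothelial markers 0 rose and 3 fell in KO, 1 rose and 1 fell in DBA, and 0 rose and 4 fell in B6 lungs. Their sums were 1231 to 1504 TPM in hyperoxic and 1575 to 1801 TPM in room-air KO lungs, 1179 to 1311 TPM in hyperoxic and 1587 to 1719 TPM in room-air B6 lungs, and 775 to 860 TPM after hyperoxia and 1005 to 1178 TPM in room air in the second set, without overlap in these 3. Of 6 epithelial markers 4 rose and 1 fell in DBA lungs, while their sums overlapped. In whole lung, fewer cells of a type and less RNA per cell cannot be told apart, and the part of these markers in the member results was not tested. In BMDM, where Ifi203 and Ifi204 fell too, summed macrophage markers were also lower in hyperoxia, at 16364 to 16561 against 20209 to 21550 TPM in KO, 16639 to 16809 against 20523 to 21199 TPM in DBA and 18972 to 19328 against 24979 to 25233 TPM in B6 (hyperoxia against room air). The 8 neutrophil markers summed to 8.61 to 11.1 against 49.3 to 93.8 TPM in KO, 2.38 to 2.95 against 5.82 to 7.07 TPM in DBA and 3.25 to 7.69 against 25.6 to 44.4 TPM in B6, with Ly6g at 0 in each group.

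Trem2 genotype made no called difference to the members in room-air lungs. KO and B6 lungs overlapped for each member, with log2 differences of -0.33 for Ifi203, -0.36 for Ifi204, -0.15 for Mndal and 0.01 for Aim2. Their 95% intervals reached from -0.68 to 0.03, from -1.02 to 0.30, from -0.50 to 0.21 and from -0.25 to 0.27. By limma 0 of 4 members passed (0.0769% of all genes were called, 0.0512% higher and 0.0256% lower), and 0 had an unadjusted p under 0.05.

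After hyperoxia KO and B6 lungs did differ. Ifi203 was at 8.23 ± 1.33 TPM in KO lungs and 3.21 ± 0.133 TPM in B6 lungs (SD, n = 4 and 3), and Mndal at 15.3 ± 2.43 TPM in KO lungs and 10.0 ± 1.42 TPM in B6 lungs. These are log2 differences of 1.12 (adjusted p = 0.000193) and 0.56 (adjusted p = 0.0229). Aim2 was lower, at 3.83 ± 0.536 TPM in KO lungs and 5.55 ± 0.576 TPM in B6 lungs (-0.44, adjusted p = 0.0163). None of the 3 overlapped between genotypes, and 3 of 4 tested members were called, where 37.2% of all genes were. Of the 10 macrophage markers 7 were called higher in KO and 1, Mertk, lower, with sums of 2829 to 3584 TPM in KO and 1861 to 2116 TPM in B6 lungs. The part of these markers in the member differences was not tested. These KO and B6 lungs share no date code and no sex pattern: with the date code as a term, which borrows the room-air lungs, the differences were 0.48 for Ifi203, 0.04 for Mndal and -0.36 for Aim2 (adjusted p = 0.419, 0.955 and 0.477). Among male lungs alone they were 1.10, 0.56 and -0.42 (adjusted p = 0.00212, 0.0334 and 0.0779). Room-air B6 males and females carry different date codes, so the date term carries sex with it. Male KO and B6 lungs share no date code. Neither fit separates genotype from both date code and sex. Mndal also missed the threshold without the first or the second B6 lung (0.56 and 0.47, adjusted p = 0.0544 and 0.0952), without the second or the fourth KO lung (0.49 and 0.51, adjusted p = 0.0622 and 0.0597) and under quantile normalization (0.49, adjusted p = 0.0631). Aim2 missed it without the first or the third B6 lung (-0.42 and -0.39, adjusted p = 0.0529 and 0.0655).

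The oxygen response itself differed between KO and B6 lungs for 2 of 4 tested members (25.3% of all genes were called, 16.4% higher and 8.98% lower). The fall of Ifi203 was smaller in KO by 1.45 ± 0.24 (log2, SE; adjusted p = 0.000622) and that of Mndal by 0.71 ± 0.25 (adjusted p = 0.0449). With the date code as a term the Ifi203 difference was 1.12 (adjusted p = 0.0108), and among males 1.22 (adjusted p = 0.00854). As above, the date term is tied to sex in room-air B6 lungs, and male KO and B6 lungs share no date code. The Mndal difference was 0.45 (adjusted p = 0.270) with the date code, 0.48 (adjusted p = 0.221) among males and 0.60 (adjusted p = 0.119) under quantile normalization. With sex as a term it was 0.66 (adjusted p = 0.0526), and with no filter on low values it was at adjusted p = 0.0760. It also missed the threshold in 10 of 15 fits that left out a library, at 0.57 to 0.72 with adjusted p from 0.0626 to 0.110. Ifi204 and Aim2 differed by 1.04 (95% interval 0.07 to 2.02, adjusted p = 0.110) and by -0.45 (-0.84 to -0.07, adjusted p = 0.0796), which for Aim2 was -0.63 (adjusted p = 0.0201) under quantile normalization.

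DBA and B6 lungs differed in the oxygen response of Ifi203 (29.2% of all genes were called, 20% higher and 9.2% lower). It was higher in DBA by 1.34 ± 0.27 (log2, SE; adjusted p = 0.00245), which is a smaller fall from a lower level. Ifi204 and Aim2 did not pass, at 0.59 (95% interval -0.16 to 1.34) and 0.02 (-0.49 to 0.52). For Ifi202b, at 0 in all but 1 B6 library, and Mndal, near 0 in DBA, the differences of 0.71 and 1.43 rest almost wholly on the response of the strain that expresses the gene and are no test of a strain difference. KO and DBA lungs were both set against the same 7 B6 lungs.

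In BMDM 3 of the 5 members were higher in KO than in B6. Under hyperoxia Ifi203 was at 26.4 and 28.0 TPM in KO and at 8.91 and 6.89 TPM in B6, Ifi204 at 79.4 and 78.9 TPM in KO and at 30.3 and 28.3 TPM in B6, and Mndal at 35.8 and 37.0 TPM in KO and at 18.4 and 13.7 TPM in B6. No KO library overlapped with B6, and the log2 differences were 1.67, 1.40 and 1.15 (adjusted p = 3.94e-05, 0.000168 and 0.00256; 50.3% of all genes were called). In room air the differences of the same 3 genes were 1.48, 1.28 and 1.10 (adjusted p = 8.04e-05, 0.000287 and 0.00319; 49.1% of all called). Aim2 differed by 0.02 under hyperoxia (95% interval -0.24 to 0.28) and by -0.11 in room air (-0.37 to 0.16). Ifi202b, at no more than 10 reads in a library, did not pass. All KO BMDM carry another date code than B6 BMDM, and the 5 fibroblast markers summed to 24.9 to 32.4 TPM in KO and 0.14 to 0.20 TPM in B6 under hyperoxia, and to 87.5 to 110 TPM in KO and 0.590 to 0.830 TPM in B6 in room air. Col1a1 was at 0 in hyperoxic B6 BMDM, and all 5 markers were called higher in KO. DBA BMDM, which share the KO date code, also summed to 29.8 to 33.4 TPM in hyperoxia and 76.7 to 90.7 TPM in room air; the part of date code and of these cells in the member differences was not tested.

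The oxygen response of the members in BMDM was not shown to differ between genotypes. Between KO and B6 0 of 5 passed (1.45% of all genes called, 0.795% lower) and 0 had an unadjusted p under 0.05, with differences from 0.04 (Mndal, 95% interval -0.69 to 0.78) to 0.19 (Ifi203, -0.33 to 0.72). Ifi202b, at no more than 10 reads in a KO or B6 BMDM library, is among these 5 through DBA alone and says nothing of a KO or B6 response. Between DBA and B6 0 of 5 passed (0.974% called, 0.422% higher). The 1 with an unadjusted p under 0.05 was Ifi202b, whose value of -0.69 rests on the DBA response, since B6 was at 0 or 1 read.

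Genes that act beside the members were counted from lists, with medians beside that of all genes. The lists were chosen with earlier results of these data known, so the counts are descriptions. Of 30 interferon-stimulated genes none rose with oxygen in BMDM and 28 fell in KO (16.4% of all genes fell), 19 in DBA (13%) and 20 in B6 (22.8%), with medians of -0.92, -0.69 and -0.66. Gbp2 and Gbp3, interferon-induced GTPases, fell by 1.60 and 1.47 on the log2 scale in KO BMDM (adjusted p = 0.00020 and 0.000486), and Ifit2 and Gbp3 fell by 1.21 and 1.11 in B6 BMDM (adjusted p = 0.0242 and 0.00191). In lungs 3 rose and 1 fell of 29 in KO (10.6% and 9.11% of all), 2 rose and 9 fell of 27 in DBA (18.6% and 12.4%), and 1 rose and 18 fell of 29 in B6 (16.6% and 26%). Oasl2 and the transcription factor Irf7 fell by 1.68 and 1.16 in B6 lungs (adjusted p = 2.46e-06 and 0.000558), while Ifit3 rose in all 3 genotypes, by 1.46 in KO, 1.04 in DBA and 1.23 in B6 (adjusted p = 0.000142, 0.000297 and 0.000223). In the second B6 set 1 rose (Ifit3, 1.0, adjusted p = 0.0215) and 1 fell of 28. KO against B6, 15 of 29 were higher in hyperoxic lungs (22% of all genes were higher), 17 of 30 in hyperoxic BMDM (38.1%) and 26 of 30 in room-air BMDM (33.9%). In room-air lungs 0 of 29 passed by limma, and 2 had an unadjusted p under 0.05.

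The AIM2 inflammasome list holds Pycard and Casp1, through which AIM2 signals, and further inflammasome genes. It also holds Nlrp3, Nlrp1b and Nlrc4, sensors of other inflammasomes, so its counts are not of AIM2 partners alone. Of its genes tested, 0 of 9 passed in KO lungs by limma (1 had an unadjusted p under 0.05), 1 rose and 1 fell of 9 in DBA lungs (18.6% and 12.4% of all genes), and 1 rose and 5 fell of 9 in B6 lungs (16.6% and 26%). Il1b, which encodes interleukin-1β, fell by 1.46 in B6 lungs (log2, adjusted p = 0.000597) and Gsdmd, the pore-forming gasdermin D, by 0.64 (adjusted p = 0.000567), while Casp4 rose by 0.78 (adjusted p = 0.0100). The second B6 set did not show the falls of Il1b (0.24) and Gsdmd (-0.05; limma adjusted p = 0.631 and 0.898). Casp4 was at 0.73 there (limma adjusted p = 0.0707). In DBA lungs Pycard rose by 0.67 (adjusted p = 0.00474) and Gsdmd fell by 0.46 (adjusted p = 0.00126). In BMDM Pycard fell in each genotype, by 0.60 in KO, 0.59 in DBA and 0.43 in B6 (adjusted p = 0.000255, 0.000444 and 0.00135), and Il1b fell by 0.84, 1.58 and 0.93 (adjusted p = 0.0370, 0.00267 and 0.0218). Il1rn, the interleukin-1 receptor antagonist, rose by 0.85, 0.76 and 0.55 (adjusted p = 0.00260, 0.00603 and 0.0189). KO against B6 in hyperoxic lungs, 5 of 9 were higher (22% of all genes), among them Il1b (1.03, adjusted p = 0.00859) and Pycard (0.85, adjusted p = 0.00317).

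Of 18 tested genes of cytosolic DNA sensing, 9 fell in KO BMDM (16.4% of all genes fell), 7 in DBA BMDM (13%) and 12 in B6 BMDM (22.8%), and none rose. Tmem173, which encodes STING, fell with oxygen by 0.97 in KO, 0.82 in DBA and 0.70 in B6 BMDM (log2, adjusted p = 0.000488, 0.00163 and 0.00235), and the nuclease gene Trex1 by 1.27, 1.16 and 1.00 (adjusted p = 0.00428, 0.00857 and 0.0122). In lungs 4 rose and 1 fell in KO (10.6% and 9.11% of all), 6 rose and 3 fell in DBA (18.6% and 12.4%), and 2 rose and 6 fell in B6 (16.6% and 26%). Tmem173 fell by 0.63 and Irf3 by 0.82 in B6 lungs (adjusted p = 0.000674 and 6.97e-06), and the responses of Tmem173 and Irf3 were higher in KO than in B6 lungs by 0.99 and 0.72 (adjusted p = 0.000550 and 0.000866).

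The other HIN-200 genes in the tables are Ifi205, Ifi207, Ifi208, Ifi209, Ifi211, Ifi213 and Ifi214. Of these, 1 of 6 tested fell with oxygen in KO lungs (9.11% of all genes fell), 0 of 6 in DBA lungs (12.4%; limma; 0 had an unadjusted p under 0.05) and 3 of 6 in B6 lungs (26%). In BMDM 6, 4 and 5 of 7 fell in KO, DBA and B6 (16.4%, 13% and 22.8% of all). Ifi209 fell by 1.76 in B6 lungs and by 1.58 in B6 BMDM (log2, adjusted p = 3.35e-05 and 3.44e-05), and Ifi208 fell by 0.83 in KO lungs and 1.24 in B6 lungs (adjusted p = 0.00207 and 3.45e-05). In KO against B6 BMDM 6 of 7 were higher in either exposure (38.1% of all genes under hyperoxia and 33.9% in room air), Ifi213 by 1.89 under hyperoxia and 2.02 in room air (adjusted p = 0.000142 and 9.15e-05). The date code and fibroblast markers named above move with that contrast too.

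p53 binding was mapped in the same design by chromatin immunoprecipitation and sequencing (ChIP-seq), with 1 peak list per group called on pooled replicates. The lists held 134 to 255 peaks in lungs, 1320 and 1263 in hyperoxic and room-air KO BMDM, and 3500 and 4107 in hyperoxic and room-air B6 BMDM. The samples include no p53 ChIP-seq of DBA BMDM. The KO BMDM ChIP samples were placed by their titles, since their genotype label reads C57BL/6J. A single peak lay within 10 kb of a member's start: chr1:173880216-173880416 in room-air B6 BMDM, beginning 29 bp upstream of the Mndal start shown above. Its score, the authors' normalized tag count, was 13, equal to the median of that list (1750 of 4107 peaks scored higher). The ISRE core of the Mndal window, at chr1:173880214-173880223, overlaps the end of this peak nearest to the start site, and the p53 half-site consensus, searched by name on both strands, was in none of the 6 member windows (8.36% of all windows held one). The hyperoxic B6 BMDM list had no peak there. Its nearest to Mndal was chr1:173903696-173903896, 23509 bp upstream of the Mndal start and inside the listed span of Ifi211, with a score of 10. No list of KO BMDM and no lung list had a peak within 50 kb of a member's start. With pooled lists that differ in length, the presence of 1 peak in 1 list has no replicate check.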

How the data were processed

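The deposited files cover RNA-seq of lungs and BMDM and p53 ChIP-seq. Expression is in 4 tables of TPM, which the authors computed with HOMER from STAR alignments to mm10, 1 RefSeq transcript per gene symbol, per the submitters' processing notes; Bowtie2 is also named there, with no versions in the sources used here. In the 10 peak lists the deposited score is HOMER's normalized tag count, per the file headers, called on pooled replicates. The KO BMDM lists used the B6 input, per the file headers.

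Members and gene lists were chosen with earlier results of these data known. Named genes were the members, Trem2, the 3 genes nearest in pattern to each member, up to 4 called genes with the largest change per list and comparison, and neighbours within 500 kb whose strain means differed by at least 1 (log2). The 7 B6 lung columns are the same in both lung tables, so 40 libraries were used in all. Lung columns could be matched to groups but not to single titled replicates. Depth came from TPM times transcript length. Among detected genes with few estimated reads this was a whole multiple of 1 constant per library in at least 99.95% (tolerance 0.15). Genes with more reads were not checked. Such estimated reads and floors of 3 reads cover counting error only.

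Values were tested as log2(TPM + 1), 1 mean per group, all groups of a table in 1 fit, keeping genes that reached 1 TPM in at least n libraries, n being the size of the smallest group (limma 3.58.1 with trend, R 4.3.3; Benjamini-Hochberg, threshold 0.05). A fold change on this scale understates the change of low genes. Python 3.11.15, numpy 2.4.6 and pandas 2.3.3 were used for the rest. Alternatives were a pseudocount of 0.1, no filter, quantile normalization, a minimum log2 change of 1, only the groups compared, leaving out each library (a group left with 1 library is assumed to vary like the others), date code and sex terms or single strata, the replicate block, and peak windows of 1 and 50 kb. DBA against B6 levels were not tested. A few genes that the naming rule takes are not reported here, though counts include them. Same-numbered BMDM libraries of KO, DBA and B6 (same sex mark) had correlations of deviations of -0.05, 0.079 and 0.385, and those of the second lung set 0.0475 and 0.00827, so they were not treated as pairs.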

Additional observations from a re-analysis of the deposited data

Results flagged for a closer look

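The difference in oxygen response between genotypes passed its test in lungs for Ifi203 (KO minus B6, 1.45 on the log2 scale) and Mndal (KO minus B6, 0.71), and for Ifi203 in DBA minus B6 (1.34). The DBA minus B6 values of Ifi202b (0.71) and Mndal (1.43) also stood out, but 1 strain is at or near 0 in each, so they rest almost wholly on the other strain and are no test of a strain difference. All of these rest on the same 7 B6 lungs, whose date codes differ in part from KO and wholly from DBA lungs.

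Each member was checked in each group of 4 libraries, which gave 25 sets with any spread that share libraries. In 2 of these sets 1 library stood far from the other 3. Chance alone marks about 1 in 20 where values are normally spread, which does not hold for these 2 near-floor sets. Nothing is read from the count. Mndal was at 0.452 TPM in 1 hyperoxic DBA lung and at 0.0660 to 0.0910 TPM in the others. Ifi202b was at 0.350 TPM, or 10 estimated reads, in 1 room-air B6 lung and at 0 in the others.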

How the results depend on the processing

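No member called in a comparison changed direction under any of the 469 alternative values computed for such calls. Of these, 388 kept the call and 81 lost it. Some alternatives, such as a minimum log2 change of 1, no filter and only the groups compared, leave the difference itself unchanged. They could not alter a direction. The second B6 set is not counted as an alternative to the first, and Aim2 was at -0.37 there, against 0.52 in the first. Of 493 values for members not called, 30 changed sign and 7 passed the threshold. With a minimum log2 change of 1, the members called fell to 0 in KO, DBA and second-set lungs under oxygen, and to 1 in DBA BMDM, KO against B6 hyperoxic lungs and the KO minus B6 lung response. Within either date code 0 were called in DBA lungs, with 2 libraries per group. With no filter 1 was called in the second set and 1 in the KO minus B6 lung response. The date code as a term left 0 in KO against B6 hyperoxic lungs and 1 in the KO minus B6 lung response, which also had 1 with sex as a term or among males; a pseudocount of 0.1 left 1 in the DBA minus B6 lung response. Leaving out 1 library gave 0 to 2 called in the second set, 1 to 3 in KO against B6 hyperoxic lungs, 1 to 2 in the KO minus B6 lung response, 1 to 4 in DBA BMDM, 2 to 3 in DBA lungs and in the DBA minus B6 lung response, and 3 to 4 in B6 BMDM. Apart from fewer libraries where some were left out, the cause was not tested. The counts for the DBA minus B6 lung response take in Ifi202b and Mndal where they passed, and both missed with a pseudocount of 0.1. Their values rest almost wholly on 1 strain and are no test of a strain difference, so only Ifi203 bears on one there.

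Sign changes were all of small, uncalled differences (log2). Leaving out a library, Aim2 ranged from -0.00595 to 0.104 in KO lungs under oxygen, -0.0585 to 0.0832 in KO against B6 room-air lungs, -0.0715 to 0.152 in the DBA minus B6 lung response, -0.264 to 0.0648 in DBA BMDM and -0.0591 to 0.0946 in KO against B6 hyperoxic BMDM. Ifi202b ranged from -0.0554 to 0.104 in KO BMDM. In the KO minus B6 BMDM response Ifi202b ranged from -0.0209 to 0.139, Ifi203 from -0.0849 to 0.472, Ifi204 from -0.0734 to 0.327 and Mndal from -0.315 to 0.404. Among males Mndal was 0.0829 in KO against B6 room-air lungs. Under quantile normalization Aim2 was -0.20 in the DBA minus B6 lung response and -0.19 in KO against B6 hyperoxic BMDM, Ifi202b was -0.18 and -0.0120 in KO against B6 room-air and hyperoxic BMDM, and Ifi204 and Mndal were -0.0329 and -0.10 in the KO minus B6 BMDM response. That normalization moved the median of all genes by -0.20 in KO against B6 hyperoxic BMDM, -0.15 in room-air BMDM, 0.15 and 0.10 in B6 and KO BMDM under oxygen and -0.12 in the DBA minus B6 lung response. The replicate block kept 3 of 5 members called in KO against B6 BMDM and gave 4 in KO BMDM, with Aim2 (-0.30, adjusted p = 0.00928, limma), and 4 in DBA BMDM, with Mndal (-0.74, adjusted p = 0.00280); lung columns carry no numbers that match the titles. Peaks within 50 kb numbered 1 in hyperoxic B6 BMDM, against 0 within 10 kb.

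Depth limits Ifi202b in B6 and KO and Mndal in DBA lungs, which rest on a few reads, and the second lung set most.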
